A study of Mus musculus with 10 samples.

Results

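The thrombospondins are a family of 5 genes, Thbs1, Thbs2, Thbs3, Thbs4 and Comp, and all 5 were measured in the left ventricle after pressure overload. Members were chosen by gene symbol, which gave 6 probes of the 26423 on the array and 5 of its 19942 gene symbols, with a pair of probes for Thbs2 and a single probe for each other member. All 6 probes passed the filter on low intensity. The hearts came from male C57BL/6J mice, labelled as 8-week animals, that underwent transverse aortic banding (TAB), a constriction of the aortic arch that makes the ventricle pump against raised pressure, or a sham operation. The left ventricle was taken on day 3, 5, 7, 14 or 28 after surgery, with 1 TAB and 1 sham sample per day and 10 samples in all. No transgene or drug was used, and the number of mice behind a sample is not given in the sources used here. The condition label of the TAB sample of day 14 names 15 days while its title names 14, and it was used as day 14. Because each day holds a single sample per operation, no day has a replicate check, and tests were made over the 5 days. Fewer cells of a type and less RNA per cell cannot be told apart in such whole-tissue samples.

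Thrombospondins are large secreted glycoproteins that bind calcium, other matrix proteins and cell surface receptors, and they are made mainly where tissue is injured or remodelled. Thbs1 and Thbs2 form trimers and carry properdin-like repeats that bind the receptor CD36 and, in Thbs1, can release TGF-β from its latent complex. Thbs3, Thbs4 and Comp form pentamers and lack these repeats. Thbs1 is stored in platelets and is also made by many stressed cells, Thbs2 takes part in collagen fibril assembly and in the clearance of MMP2, and Thbs4 is known in the heart as a protein of the loaded ventricle that has been linked to the ATF6 branch of the endoplasmic reticulum stress response. Comp, the cartilage oligomeric matrix protein, is best known from cartilage and tendon, where it binds collagen fibrils.

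The 5 genes lie on different mouse chromosomes. In the GRCm38.p6 annotation of RefSeq, where all are protein coding, Thbs1 is at chr2:118111876-118127133, Thbs2 at chr17:14665500-14694262, Thbs3 at chr3:89215180-89226841, Thbs4 at chr13:92751586-92794818 and Comp at chr8:70373548-70382066. Promoter sequence from RefSeq was at hand for 3 of the 5 members, Thbs2, Thbs3 and Thbs4, and the 250 bases before the start of each are shown. None was at hand for Thbs1 and Comp, and whether the sequence goes with the response to TAB was not tested. Each is written 5′ to 3′ on the gene's strand. Thbs2 is read from chr17:14694263-14694512 on the minus strand, Thbs3 from chr3:89214930-89215179 on the plus strand and Thbs4 from chr13:92794819-92795068 on the minus strand. Capitals mark every match, on either strand, to the GC box GGGCGG, the CCAAT box CCAAT or the TATA box TATAAA.
Thbs2: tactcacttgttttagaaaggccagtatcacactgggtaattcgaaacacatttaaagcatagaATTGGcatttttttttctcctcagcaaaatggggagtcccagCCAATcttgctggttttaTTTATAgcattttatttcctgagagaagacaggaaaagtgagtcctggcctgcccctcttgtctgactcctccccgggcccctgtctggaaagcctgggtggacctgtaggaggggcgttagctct
Thbs3: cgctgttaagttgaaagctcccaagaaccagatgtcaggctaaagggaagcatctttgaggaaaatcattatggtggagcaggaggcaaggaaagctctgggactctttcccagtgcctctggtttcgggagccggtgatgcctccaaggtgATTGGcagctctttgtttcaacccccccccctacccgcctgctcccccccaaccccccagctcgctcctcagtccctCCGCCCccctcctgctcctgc
Thbs4: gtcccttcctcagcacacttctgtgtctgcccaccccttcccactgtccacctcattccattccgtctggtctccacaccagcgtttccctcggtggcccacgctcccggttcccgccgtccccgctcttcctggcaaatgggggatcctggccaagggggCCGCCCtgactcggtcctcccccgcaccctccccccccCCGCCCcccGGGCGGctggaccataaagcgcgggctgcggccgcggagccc

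The 3 sequences differed in base composition, with a G+C share of 46.8% before Thbs2, 58.8% before Thbs3 and 70.8% before Thbs4, beside a median of 52.4% over 32851 promoter windows of the same length. The GC box was found 1 time before Thbs3 and 3 times before Thbs4, and 32.7% of all windows held at least 1. The CCAAT box was found 2 times before Thbs2 and 1 time before Thbs3 (33.8% of all windows), and the TATA box 1 time before Thbs2, 126 bases from the start (12.4% of all windows). The letters TGANTCA of AP-1 and GCGGGGGCG of the EGR factors were in none of the 3 windows, and they were in 6.75% and 2.57% of all windows. No searched motif overlapped another, and a match of letters is a description of the sequence alone.

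TAB hearts had higher Thbs1, Thbs3, Thbs4 and Comp over the 5 days, whereas Thbs2 did not pass the test. In the limma test of the average TAB effect, 4 of the 5 members were higher at an adjusted p under 0.05, where 1481 of the 16113 genes tested, or 9.19%, were higher and 1268, or 7.87%, were lower. These counts rest most on days 3, 5 and 7. They were 29 and 1 without day 3, 86 and 12 without day 5 and 20 and 2 without day 7. Without day 14 they were 565 and 382, and without day 28 they were 1482 and 1271. Of the members, Thbs4 alone was called in the fits without day 3, 5 or 7. The split of all genes into higher and lower depended on the scaling, at 1782 and 855 with median scaling only and at 1871 and 950 with quantile normalization within each operation, and the same 4 members were called higher under both. By size of the average log2 ratio of TAB over sham, Thbs4 ranked 64 from the top among all genes, Thbs1 155, Comp 658 and Thbs2 1798. Thbs3, whose sham spot was found on 1 of 5 arrays, ranked 159 by measured intensity and 230 once spots not found were set to the first percentile of found spots on their array, a floor under which Thbs4 ranked 24, Thbs1 69, Comp 412 and Thbs2 1265. The lowest TAB value lay above the highest sham value for Thbs3 and Thbs4, as it did for 9.99% of all genes. Values below are normalized intensities in arbitrary units, and they are compared within a probe only.

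**Figure D1:**
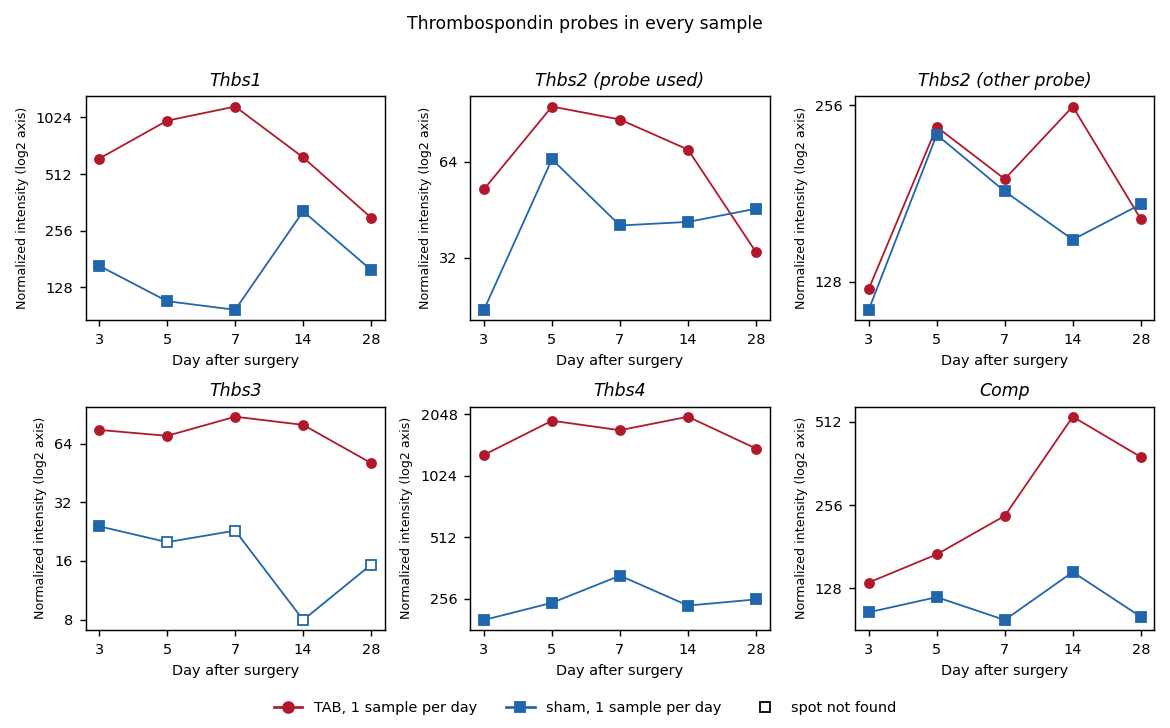
Normalized intensity of the 6 thrombospondin probes (log2 axis, arbitrary units) against the day after surgery, with red circles for TAB and blue squares for sham, 1 sample per operation and day, and open symbols where the spot was not found. Thbs4 lay between 1295 and 1992 in TAB and between 202 and 332 in sham, Thbs1 was highest in TAB on day 7 at 1170, and Comp was highest in TAB on day 14 at 535.

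Thbs1, the trimer that can activate TGF-β, was highest in TAB hearts on days 5 and 7. On days 3, 5, 7, 14 and 28 its intensity in TAB was 618, 984, 1170, 628 and 299.98. In sham it was 167, 108, 97.3, 325 and 158. Of the TAB samples, 4 of 5 lay above every sham sample, and the TAB sample of day 28 lay below the sham sample of day 14. The average effect was 2.11 on the log2 scale (SE 0.46, 95% interval 1.00 to 3.21, n = 5 days), a 4.31-fold difference, with an adjusted p of 0.0331 in limma. An exact two-sided permutation test over the 10 sample labels gave p = 0.0159, where the smallest p it allows is 0.00794. Without day 3, 5, 7 or 14 the limma call was lost, at 2.16 (adjusted p = 0.0933), 1.84 (0.0989), 1.74 (0.0924) and 2.40 (0.0527).

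The sham samples themselves spread widely in Thbs1, by a median of 0.74 and at most 1.74 on the log2 scale over the 10 pairs of sham days. The clock genes Dbp and Arntl, which were picked after their values were seen, are given beside these values. The sham samples highest in Thbs1 were those of days 14 (325) and 3 (167), the latter close to that of day 28 (158). Dbp, which cycles with the time of day, was 258 in sham on day 3 and 385 on day 14, and 2883, 5863 and 5260 on days 5, 7 and 28. Arntl, high in sham where Dbp was low, was 934 and 1012 in sham on days 3 and 14 and 41.0 to 75.2 on the other days. Between TAB and sham, Dbp was 270 and 258 on day 3, 4616 and 5260 on day 28, 2964 and 5863 on day 7 and 2567 and 385 on day 14. Arntl was 866 and 934 on day 3, 48.4 and 41.0 on day 28, 159 and 75.2 on day 7 and 315 and 1012 on day 14. On day 5 Dbp was 2875 and 2883, whereas Arntl was 118 and 50.5. Whether the hour of sampling had a part in the Thbs1 values was not tested.

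Thbs2, which shares the trimeric structure of Thbs1, was higher in TAB on 4 of 5 days and did not pass the test. With the probe of the larger summed ratio (PH_mM_0013645), which stands for the gene here, the TAB values were 52.5, 95.5, 87.0, 70.0 and 33.3 from day 3 to day 28. The sham values were 21.9, 65.2, 40.4, 41.4 and 45.6, so the groups overlapped and 3 TAB samples lay above every sham sample. These intensities lie near the common array median of 47. The average log2 ratio was 0.64 (SE 0.26, 95% interval 0.01 to 1.27), with an adjusted p of 0.134 in limma and p = 0.127 in the exact permutation test. Without day 28, the day on which sham was higher, the ratio was 0.92 and the adjusted p 0.0294.

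The other Thbs2 probe (PH_mM_0006126) gave a smaller difference. Its TAB values were 125 (124.5), 235, 192, 255 and 164, and its sham values 115, 228, 183, 151 and 174. TAB and sham lay close together on every day except day 14, where the log2 ratio was 0.75. The average was 0.18 (SE 0.15, 95% interval −0.18 to 0.54; adjusted p = 0.432 in a limma fit of every probe on its own). The probes disagreed most on day 3, with log2 ratios of 1.26 and 0.12, and their difference was not tested.

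Thbs3, a pentamer that takes part in skeletal growth, was found as a spot in all 5 TAB samples and in 1 of 5 sham samples. In TAB it measured 75.3, 70.2, 88.0, 79.9 and 50.9 from day 3 to day 28. In sham it measured 24.1 on day 3, where the spot was found, and 20.0, 22.9, 7.97 and 15.3 on the later days, where it was not. Every TAB sample lay above every sham sample, although all values were dim, with raw intensities of 55 to 86 in TAB and 8 to 35 in sham.

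The average Thbs3 effect by measured intensity was 2.09 on the log2 scale (SE 0.27, 95% interval 1.44 to 2.74), with an adjusted p of 0.0154 in limma and p = 0.00794 in the exact permutation test, the smallest it can give. Its size depends on the dim sham spots. With spots not found set to the first percentile of found spots on their array, an alternative added after seeing the data, it was 1.48 on the log2 scale (SE 0.12), with an adjusted p of 0.00274 in limma. On days 5, 7, 14 and 28 TAB was at least 2.34-fold, 2.59-fold, 3.16-fold and 2.86-fold higher against this floor, and the plain ratios to the spots not found were 3.51, 3.84, 10.03 and 3.32. With 50 added to every intensity the average was 0.85 on the log2 scale. The call was lost without day 3 (2.20, adjusted p = 0.0620), day 5 (2.16, 0.0551) or day 7 (2.13, 0.0676).

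Thbs4, the pentamer linked to the loaded heart, had the largest average ratio of the family and rose with no overlap between the groups. TAB hearts had 1295, 1904, 1711, 1992 and 1392 from day 3 to day 28. Sham hearts had 202, 245, 332, 237 and 254, so the lowest TAB sample was far above the highest sham sample. The average log2 ratio was 2.71 (SE 0.14, 95% interval 2.36 to 3.05), or 6.52-fold, with an adjusted p of 0.00349 in limma and p = 0.00794 in the exact permutation test. By day the ratio lay between 2.36 and 3.07, while pairs of sham samples differed by at most 0.72. Thbs4 passed in limma without each day in turn, with adjusted p between 0.0103 and 0.0300.

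Comp, the cartilage member of the pentamers, was highest in TAB on days 14 and 28. In the TAB samples of days 3, 5, 7, 14 and 28 it measured 134, 169.7, 234, 535 and 382. In sham it measured 105, 119, 98.2, 147 and 101, a spread of at most 0.58 on the log2 scale between days. The TAB sample of day 3 lay below the sham sample of day 14, and the other 4 TAB samples lay above all sham samples. The average log2 ratio was 1.18 (SE 0.28, 95% interval 0.50 to 1.86), or 2.27-fold, with an adjusted p of 0.0395 in limma and p = 0.0159 in the exact permutation test. The limma call was lost without any 1 day, at 1.39, 1.35, 1.17, 1.01 and 1.00 without days 3, 5, 7, 14 and 28, with adjusted p between 0.0707 and 0.114.

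**Figure D2:**
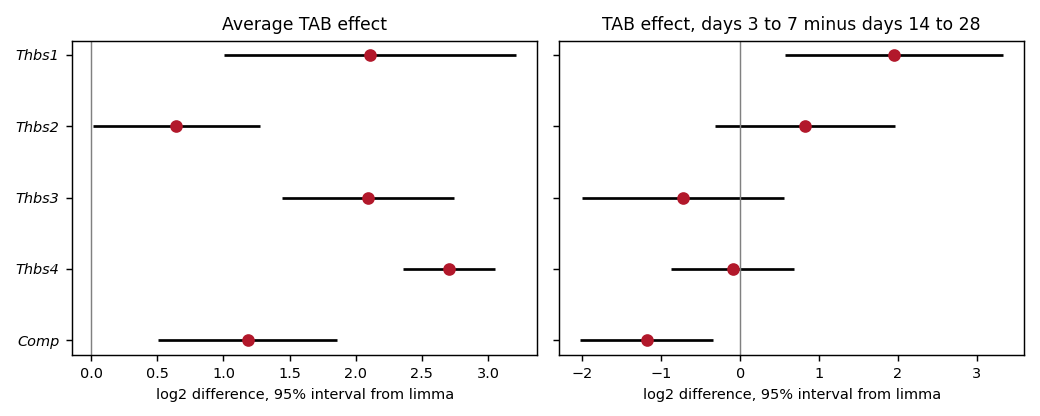
Average TAB effect (left) and TAB effect of days 3 to 7 minus that of days 14 to 28 (right) of each member, as log2 differences with 95% intervals from limma over 10 samples. The averages run from 0.64 for Thbs2 to 2.71 for Thbs4, and in the right panel the intervals of Thbs1 and Comp lie on opposite sides of 0, although no adjusted p passed.

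The calls by day are given as a description, with no test between days. A gene was called on a day when its log2 ratio exceeded 2 SDs of all ratios of that day, a rule without a p-value, and the thresholds were 1.78, 1.93, 1.75, 1.48 and 1.38 from the earliest day to the latest. Thbs1 and Thbs4 were called higher on days 3 and 5, as were 3.1% and 4.09% of all genes. Day 7 called Thbs1, Thbs3 and Thbs4, beside 4.08% of all genes. Days 14 and 28 called Thbs3, Thbs4 and Comp, beside 3.39% and 3.41%. In all, 13 of the 25 values passed, none of them of Thbs2 and none lower in TAB. The pattern depends on the threshold of the day, since Thbs3 was not called at 1.81 on day 5 and was called at 1.73 on day 28. With a fixed threshold of 1 on the log2 scale 18 values passed, which put Thbs3 over it on all 5 days and added Comp on day 7 and Thbs2 on days 3 and 7. The share of all genes past this lower threshold was not counted, so the 18 has no background beside it. Thbs4 was called on all 5 days, which held for 56 genes or 0.348%.

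**Figure D3:**
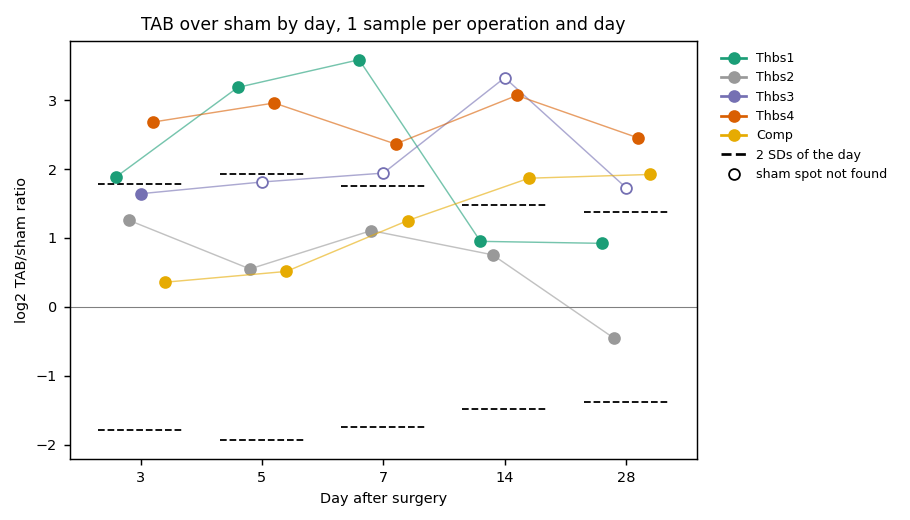
Log2 ratio of TAB over sham for each thrombospondin gene on each day, 1 sample per operation and day, with dashed lines at 2 SDs of the day and open symbols where the sham spot was not found. Thbs1 lies highest on days 5 and 7 (3.19 and 3.59), Comp passes the line only on days 14 and 28 (1.87 and 1.92), and Thbs4 lies above it on all days.

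The TAB effect of early days was set against that of late days. The mean log2 ratio of Thbs1 was 2.89 on days 3 to 7 and 0.94 on days 14 and 28, a difference of 1.95 (SE 0.54, 95% interval 0.57 to 3.34). That of Comp was 0.71 and 1.90, a difference of −1.19 (SE 0.33, 95% interval −2.03 to −0.35). In limma the unadjusted p was 0.0151 for each gene and the adjusted p 0.402, so neither difference passed. Thbs2 differed by 0.82 (95% interval −0.32 to 1.96), Thbs3 by −0.73 (−2.01 to 0.55) and Thbs4 by −0.09 (−0.87 to 0.69), with adjusted p of 0.523, 0.588 and 0.922. The value of Thbs2 was 0.22 without day 28 and 1.43 without day 14. No gene of the 16113 (0%) passed this test, whose lowest adjusted p was 0.191, while 1766 had an unadjusted p under 0.05 and 34 passed with limma's trend and robust options on. Whether Thbs1 and Comp differ from each other in their course was not tested.

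The genes whose values most resembled those of each member over the 10 samples were read from 10531 genes found on all arrays, by Pearson correlation of log2 intensity. The points share their operation and day, so a gene that differs between TAB and sham resembles a member for that alone. Closest to Thbs4 were Col8a1 (r = 0.990), a short-chain collagen, Cilp (0.988), a matrix protein of cartilage, and Fam176b (0.987). Closest to Comp were the NADPH oxidase Nox4 (0.963) and the small leucine-rich proteoglycans Fmod (0.959) and Prelp (0.948). The nearest genes of Thbs1 were Mtdh (0.982), the dermatan sulfotransferase Chst14 (0.975) and BC026590 (0.973). For Thbs3, with 4 of its 10 values from sham spots that were not found, they were Syde1 (0.974), the potassium channel Kcnk2 (0.968) and Ly6e (0.965), an order that rests on those dim readings. For Thbs2 they were the glucose transporter Slc2a1 (0.940), Tmem19 (0.932) and Enc1 (0.923).

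**Figure D4:**
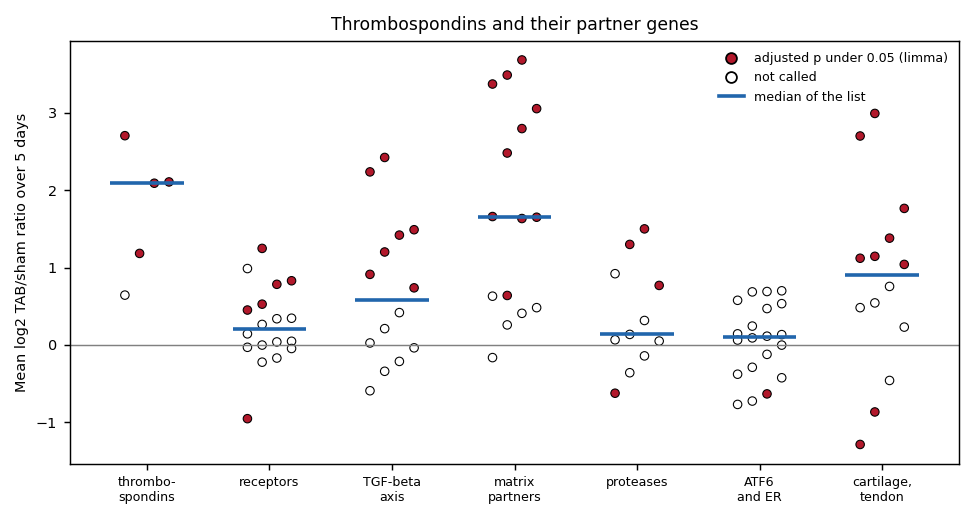
Mean log2 ratio of TAB over sham over the 5 days for the thrombospondins and for 6 gene lists, 1 point per gene. The lists hold partners and linked pathways of thrombospondins, and genes of cartilage and tendon, where Comp is best known. Points are filled where limma gave an adjusted p under 0.05, with a bar at the median of each list. The medians were 1.65 for the matrix partners, 0.90 for the cartilage and tendon genes, 0.58 for the TGF-β axis, 0.20 for the receptors, 0.14 for the proteases and 0.10 for the ATF6 and endoplasmic reticulum genes.

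By the median log2 ratio over the 5 days, the matrix proteins that bind thrombospondins stood highest of these lists, an order that was not tested. Of 15 measured matrix partners, 10 rose and none fell, with a median log2 ratio of 1.65, beside −0.03 over all genes. The collagens Col3a1 (3.68), Col1a2 (3.49) and Col5a2 (3.06) rose most, together with Postn (3.37), a matricellular protein of activated fibroblasts, all with limma adjusted p of 0.0154 or less. The Col3a1 spot was found in 4 of 5 sham samples. As with all genes, the list counts rest most on days 3, 5 and 7, and without day 28 no list had fewer genes that rose. Without 1 day the matrix partners that rose numbered 1 (without day 7) to 11 (without day 28) and the cartilage and tendon genes 1 to 7. The TGF-β genes then numbered 0 to 7, the receptors 0 to 5 and the proteases 0 to 3. In these lists the fewest were called without day 3, 5 or 7.

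Of 14 measured genes of the TGF-β axis, which Thbs1 can activate, 7 rose and none fell, with a median of 0.58. Among those that rose were the latent TGF-β binding protein Ltbp2 (2.24) and the ligands Tgfb2 (1.49) and Tgfb3 (1.42), with limma adjusted p of 0.0264 or less. The ligand Tgfb1, named after its value was seen, had −0.34 and an adjusted p of 0.102.

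Among 18 cell surface receptors and binding partners, 5 rose and 1 fell, with a median of 0.20. Cd36, the receptor of Thbs1 and Thbs2 that also takes up fatty acids, fell by 0.95 on the log2 scale (adjusted p = 0.0200), from between 1594 and 1844 in sham to between 627 and 1260 in TAB. Lrp1 (0.83), the endocytic receptor of thrombospondins, Sdc3 (0.78), a syndecan, and Robo1 (1.25), found in 2 of 5 sham samples, rose. Cd47, another receptor of Thbs1, had 0.26 and an adjusted p of 0.168, and was likewise named after its value was seen.

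Of 11 proteases, 3 rose and 1 fell, with a median of 0.14. Mmp2 (1.50), which Thbs2 is known to clear, Mmp14 (1.30), which activates Mmp2, and the plasminogen activator Plat (0.77) rose. The call of lower in TAB was for Adamts12, a protease that cleaves Comp (limma adjusted p = 0.0400), but its spot was found in no TAB and 1 sham sample, so no fold is given, and against the floor used for Thbs3 the call was lost (0.24, adjusted p = 0.506).

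Of 20 genes of the ATF6 pathway and the endoplasmic reticulum chaperones, none rose and 1 fell, beside 9.19% and 7.87% of all genes, with a median of 0.10 and with 4 of them, Atf6 among these, found on no array. The gene that fell was Canx (−0.63, adjusted p = 0.0294), a lectin chaperone. The chaperone Hspa5, found in 4 of 5 sham samples, had 0.58 and an adjusted p of 0.623 in limma, and its sham values ran from 169 to 4538. Atf6 and Hspa5 were named after their values were seen.

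Of 14 measured cartilage and tendon genes, the company in which Comp is known, 7 rose and 2 fell, with a median of 0.90. Cilp (2.99), the collagen chain Col9a2 (1.77, found in 4 of 5 sham samples) and the chondrocyte regulator Sox9 rose. Sox9 was on average over the days at least 3.34-fold higher in TAB against the same floor, as its spot was found in all TAB and in no sham samples. Col11a1 rose as well, with 1.38 by measured intensity and 0.86 against the floor (adjusted p = 0.0267), and was found in 4 TAB and 1 sham sample, and the 2 that fell were the tendon regulator Mkx (−0.87) and Lect1 (−1.29 by measured intensity), found in no TAB and 3 sham samples, whose call was lost against the floor (−0.29, adjusted p = 0.360), both named after their values were seen. Calr, Matn3, Ltbp2, Postn, Dcn and Col1a2 stand in a pair of these lists or of the marker lists below, so their counts are not independent.

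The labelled tissue carried its defining markers, as all 8 cardiomyocyte markers, among them Myh6 and Tnnt2, were found on every array and none passed the test (median −0.14). Markers of macrophages and activated fibroblasts were higher in TAB as well. All 7 macrophage markers, such as Cd68 (2.01) and Ccr2 (1.96), rose, though none was called without day 3, 5 or 7, with summed intensities of 2810 to 6436 in TAB and 1831 to 2126 in sham. Of 6 measured markers of activated fibroblasts 5 rose, and 1 did without day 3, 5 or 7, with sums of 9330 to 24070 (24069.5) in TAB and 1992 to 2589 in sham, and of 7 general fibroblast markers 3 rose. Of 8 measured platelet markers 1 rose, a share near the 9.19% of all genes, and it was Pf4 (0.70, adjusted p = 0.0293 in limma), with sums of 2548 to 3961 and 1670 (1669.8) to 2191, while Gp5, Gp6 and Treml1 were found on no array. None of 8 endothelial markers and 1 of 4 smooth muscle markers, Tagln, passed, and none of 3 skeletal muscle markers did. The part of these cells in the thrombospondin values was not tested.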

How the data were processed

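Total RNA of the left ventricle was hybridized, after Cy5 labelling, to the Mouse Whole Genome OneArray, read in 1 colour. The authors deposited raw intensity per probe and sample, read with GenePix on an Agilent scanner and not scaled between arrays, together with a flag and a detection p-value for every spot. How that deposited p-value was computed is not given in the sources used here, and it made no call. The deposited flag is a score whose meaning the authors do not state, and a negative flag was taken to mark a spot the software did not find. Raw medians ran from 34 to 57, and 52.7% to 59.8% of spots were found on an array.

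Arrays were scaled to a median of 47, probes below 1 in any sample were removed (19976 kept), quantile normalization set each rank to its median over the samples, log2 was taken, and a gene was represented by the probe whose absolute log2 ratios had the largest sum. The 3633 probes with no symbol entered no gene count. The average TAB effect and its early minus late difference were tested with limma (lmFit and eBayes, version 3.58.1, R 4.3.3) with day as a block, since the study takes its ratios within a day, and Benjamini-Hochberg adjustment at 0.05 over 16113 genes. With 1 sample per day, p-values measure the spread of the effect between days. As a check of the pairing by day, deviations from the TAB and the sham mean were correlated over genes within each day, with r of −0.0165 to 0.113. The fit was tested on simulated data without day effects, in which 200 of 16113 genes had a log2 change of 2 or 3. The test of the average effect recovered 89% at either size, with 11 false calls. The early minus late test recovered 43% at a change of 2 and 58% at 3, with 9 false calls. Other steps used Python 3.11.15 with scipy 1.17.1, pandas 2.3.3 and matplotlib 3.10.9.

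Named genes are the members, up to 4 called genes of each list with the largest mean ratio, the 3 genes most correlated with each member, defining markers, and those said to be named after their values were seen. Members, lists, motifs and tests were chosen with earlier results of these data known. Alternatives were other scalings, filters, probe choices, thresholds and fits, and each day left out. Leaving out probes not found on all arrays, and setting spots not found to the first percentile of found spots, were added after seeing the data. Protein sequences and the miRNA arrays were not used here. 1 gene that the naming rule would include is not reported here.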

Additional observations from a re-analysis of the deposited data

Results flagged for a closer look

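The log2 ratio of Thbs3 on day 14 lay apart from those of the other days, with a gap to its neighbour of 0.822 of the whole range over 5 days, beyond the critical value of 0.71 for 5 values. It was 3.33, beside 1.64 to 1.94 on the other days, and the sham intensity of that day was 7.97 on a spot that was not found. With spots not found set to the first percentile of found spots, the day 14 ratio was 1.66, beside 1.23 to 1.64 on the others. The ratio of the other Thbs2 probe on day 14 lay apart in the same way, with a gap of 0.76 of the range, at 0.75 beside −0.08 to 0.12. Of 18 sets of 5 values tested, chance gives such a gap in about 1 of 20. Neither result has a replicate on that day, and the causes were not tested.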

How the results depend on the processing

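Thbs4 was called higher in TAB under every alternative run, with log2 ratios of 2.48 to 2.81 over all 5 days. Thbs3 was called under each that kept all 5 days and gave it a value, with 0.85 to 2.11, and lost its call without day 3, 5 or 7. Thbs3 had no value with the lowest tertile of genes or the probes not found on all arrays left out. Thbs1 and Comp lost their calls with probes below 1 set to 1, at 2.11 (limma adjusted p = 0.0652) and 1.18 (0.0750). Without each day in turn, the average ratio ran from 1.74 to 2.40 for Thbs1, 0.49 to 0.92 for Thbs2, 1.78 to 2.20 for Thbs3, 2.61 to 2.79 for Thbs4 and 1.00 to 1.39 for Comp. The early minus late difference then ran from −1.53 to 0.069 for Thbs3 and −0.40 to 0.22 for Thbs4, turning direction without day 14 for Thbs3 (0.069) and without day 7 (0.060) or 14 (0.22) for Thbs4, and that of Thbs2 turned to −0.26 with the brightest probe. Genes higher in TAB numbered 2242 with 50 added, 459 with probes below 1 set to 1 and 20 to 1482 without a day. Genes lower numbered 2227 with 50 added, 1951 without the lowest tertile, 218 with probes below 1 set to 1, 2046 without probes not found on all arrays, 2064 with trend and robust on and 1 to 1271 without a day. Genes with an early minus late difference, 0 otherwise, numbered 10, 7, 16 and 34 under 50 added, no lowest tertile, no probes not found and trend and robust on. Without the replicate block there were 5, and without that pairing the adjusted p was 0.00780 for Thbs1, 0.199 for Thbs2, 0.00226 for Thbs3, 6.3e-05 for Thbs4 and 0.0345 for Comp, so no member's call changed. Calls of members over the days numbered 9 to 18 over the alternatives, against 13, and among single-day values of members under the alternatives 226 moved by less than the SD of that gene's 5 sham samples on the log2 scale, 14 by more and no called one turned direction. The causes were not tested. Values near the median intensity, as for Thbs2 and Thbs3, lie close to the background, and the number of arrays limits precision.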
